A study of Mus musculus with 221 samples.

Results

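The transcription factor genes Runx1, Runx2 and Runx3 and the gene of their shared partner, Cbfb, were followed in single cells of 3 hemogenic endothelia of the mouse embryo and in the blood cells and progenitors beside them. These 4 genes, of 78317 in the deposited tables, were taken by their symbols alone, with no measured value in the choice. They carried 34 of the 278369 annotated transcripts: 7 of Runx1, 14 of Runx2, 6 of Runx3 and 7 of Cbfb. The questions put to the data were how much of each gene was seen in each cell cluster, and to which promoter and which form of exon 6 the Runx1 counts were assigned.

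RUNX proteins bind DNA through the runt domain, and CBFβ, which does not touch DNA itself, holds that domain in its binding form. Without RUNX1 the endothelial-to-hematopoietic transition, in which flat endothelial cells round up and become blood, does not take place. RUNX2 is best known from bone, and RUNX3 from T cells, sensory neurons and later blood. Each Runx gene has a distal and a proximal promoter, and the Runx1 proteins made from them differ at their amino end.

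The cells came from embryos of crosses between reporter mice (strain C57BL/6JOlaHsd, with green fluorescence from Gfi1, red fluorescence from Runx1b, or both) and CD-1 females. HE-AGM, hemogenic endothelium of the aorta-gonad-mesonephros region, was sorted at E9.5 and E10.5 as RUNX1+, KIT-, CDH5+, CD41-, CD45-, with or without GFI1. HE-YSA and HE-YSP are the yolk sac populations with arterial and with capillary plexus traits, sorted at E9, E9.5 and E10.5 as RUNX1+, KIT+, CD31+, CD41-, CD45-, with or without GFI1. Each of the 3 has an early and a late cluster. The other clusters are HE-Hb, AGM cells that the study places in the blood clusters of the aorta, and the yolk sac progenitors p1, skewed to lymphomyeloid, and p2, skewed to erythromyeloid cells. Cells of at least 17595 estimated counts were used, 208 of 221. They were 29 HE-AGM early, 20 HE-AGM late, 21 HE-Hb, 23 HE-YSA early, 29 HE-YSA late, 25 HE-YSP early, 24 HE-YSP late, 17 p1 and 20 p2 cells. Of the p1 cells 2 were of E9.5 and 15 of E10.5. Of the p2 cells 5 were of E9.0, 9 of E9.5 and 6 of E10.5. No HE-Hb cell carries a stage or a sort name. Of the p1 cells 12 carry Runx1 and 5 carry Gfi1 in their sort name, and of the p2 cells 18 and 2.

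Several features of the design limit what these groups can show. The Runx1 reporter was part of the sort gate, so the presence of Runx1 in these cells is not a result. The clusters were drawn from short reads of the same cDNA, so differences in gene level between clusters are not independent of the clustering. The red reporter sits in the Runx1 gene, and how reads of that allele were counted was not tested. No embryo is named for any cell, so each cluster was treated as 1 sample: no test was made, and the intervals given are exact 95% intervals that cover counting error only. PCR copies without molecular identifiers are not independent molecules, so the true error is larger. HE-AGM cells came from cDNA projects named GL34 (43 cells), GL43 (5) and GL36 (1), and all but 1 yolk sac HE cell came from GL69, so that tissue and project cannot be told apart. The same holds for HE-Hb, all of GL34, and for p1 and p2, all of GL69. 3 cells labelled HE-YSA carry an AGM project or AGM in their names.

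The total per cell ran from 18131 to 125339 counts and was higher in HE-AGM (median 59311) than in HE-YSA (34484) and HE-YSP (33297). Levels are given as CPM, counts per 1000000 of the summed counts of a cluster. Summed marker levels followed the labels for endothelium, artery and plexus. Of the plexus markers, Stab2 had no count in HE-YSP late but stood at 107 CPM in HE-YSA late, from 114 counts in 1 cell. The summed level of 6 endothelial markers was 1418 CPM for HE-AGM, 1182 for HE-YSA and 1232 for HE-YSP, against 252 in HE-Hb, 478 in p1 and 270 in p2. Of the 5 arterial markers the sums were 1314, 1143 and 141 CPM in the 3 HE populations, of the 3 plexus markers 1.80, 109 and 1163, of 4 HE markers 403, 406 and 167 (209 in p1 and 216 in p2, above HE-YSP), and of 6 blood markers 495, 386 and 626. RNA of other cells was low but uneven. The 7 erythroid genes summed to 180, 39.9 and 35.9 CPM in the same order, with 6 of 7 above 0 in each, a median cell of 0 and a highest cell of 8800, 872 and 527 CPM. The 3 megakaryocyte genes summed to 3.00, 2.62 and 43.7 CPM. Of the macrophage list only Csf1r was above 0 in any HE population, with C1qa, C1qb, C1qc and Adgre1 at 0, and the mesenchyme and yolk sac endoderm lists stayed below 2.5 CPM. Their part in the results below was not tested.

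The promoters are shown first, because the Runx1 result turns on them. Runx1 lies on the minus strand of chromosome 16, and its promoter sequences, from RefSeq on GRCm38.p6, are printed in the sense of transcription with every CpG in capitals. The first stretch lies upstream of the distal start (chr16:92826150-92826324) and the second upstream of the proximal start (chr16:92697330-92697579).
Runx1 distal: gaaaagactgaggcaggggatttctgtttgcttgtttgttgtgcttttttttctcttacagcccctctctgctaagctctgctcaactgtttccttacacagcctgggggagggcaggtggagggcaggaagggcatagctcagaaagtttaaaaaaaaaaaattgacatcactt
Runx1 proximal: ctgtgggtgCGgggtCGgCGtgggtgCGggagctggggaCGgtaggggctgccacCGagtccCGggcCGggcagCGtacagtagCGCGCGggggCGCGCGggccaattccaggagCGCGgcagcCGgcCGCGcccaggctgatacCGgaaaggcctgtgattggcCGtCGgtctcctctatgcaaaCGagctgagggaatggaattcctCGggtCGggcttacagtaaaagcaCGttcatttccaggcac
The distal stretch of 175 bases held 0 CpG and was 45.1% G and C. The proximal stretch of 250 bases held 27 CpG and was 67.6% G and C, so that the promoters of the same gene are of very different base composition.

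The distal windows of all 3 Runx genes shared a feature that the choice of members did not use. The RefSeq windows of 300 bases (250 before to 50 after a start) were searched on both strands for ACCACA, the core motif that RUNX proteins bind, and for a pair of it spaced by GA. The pair was read from the 3 distal windows themselves, so finding it in all 3 was given in advance. Only its count in the other windows is a result of the search. The pair is in capitals below, at chr16:92826025-92826054 for Runx1 (minus strand), chr17:44814583-44814612 for Runx2 (minus strand) and chr4:135120503-135120532 for Runx3 (plus strand).
Runx1 distal: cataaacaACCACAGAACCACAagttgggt
Runx2 distal: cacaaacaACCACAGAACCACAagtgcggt
Runx3 distal: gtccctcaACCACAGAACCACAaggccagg
ACCACA alone was found in 5506 of 32851 windows (16.8%). The pair was found in 4 windows (0.0122%), those of the 3 distal promoters and that of Gm16225, which overlaps the Runx3 window. It begins 28 bases after the RefSeq start in Runx1, 23 after it in Runx2 and 134 before it in Runx3. It was not in the proximal windows of Runx1 and Runx3 or in the window of Cbfb. Whether any protein binds these letters was not measured.

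The Runx1 transcripts differ in 3 places. Runx1-201 starts at the distal promoter, and Runx1-202 and Runx1-203 start at the proximal promoter. Their coding sequences open with different exons, shown here from the start codon (in capitals) to the base before the sequence that both forms share, at chr16:92825589-92825646 for the distal and chr16:92695738-92695753 for the proximal form (GRCm38, minus strand, GENCODE M21).
Distal opening: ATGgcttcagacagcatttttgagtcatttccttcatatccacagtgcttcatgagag
Proximal opening: ATGcgtatccccgtag
Exon 6 (chr16:92644154-92644345, minus strand) is held by Runx1-201 and Runx1-203 and skipped by Runx1-202. It is the sixth exon of Runx1-201 and its 192 bases are a multiple of 3, so skipping it keeps the reading frame. It is shown in lower case, with the last 10 bases of the exon before it and the first 10 of the exon after it in capitals.
Runx1 exon 6: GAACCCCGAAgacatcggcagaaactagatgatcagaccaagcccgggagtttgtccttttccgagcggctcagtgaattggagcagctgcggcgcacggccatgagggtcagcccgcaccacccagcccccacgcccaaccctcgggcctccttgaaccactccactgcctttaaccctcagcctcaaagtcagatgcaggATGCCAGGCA
The annotation holds no distal transcript that skips exon 6 and no proximal full-length transcript other than these, and Runx1-201, Runx1-202 and Runx1-203 also end at different places. Promoter, exon 6 and 3′ end were therefore not free to vary apart in these counts. The counts are assignments to whole annotated transcripts, and whether a read reached the first exon or exon 6 was not checked. The remaining transcripts are short, and none of them reaches exon 6. Runx1-204 and Runx1-207 start at the distal promoter and Runx1-206 at the proximal. Runx1-205 starts at chr16:92695495, in sequence that both forms share, so its start does not show the promoter. It was counted with the proximal group. Of the 34 transcripts of the 4 genes, 33 were matched to this annotation by identifier with the same length, and Runx2-214 was not.

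Runx1, the factor that drives the transition, was seen most in HE-AGM. The summed level was 72.7 CPM (95% interval 63.8 to 82.4; 242 counts) in HE-AGM, 22.6 CPM (16.3 to 30.4; 43 counts) in HE-YSA and 10.2 CPM (5.92 to 16.3; 17 counts) in HE-YSP. None of these 3 intervals overlap, but those of HE-YSA and HE-YSP come close, at 16.33 and 16.28 CPM. Over single cells of HE-AGM the level ran from 0 to 367 CPM with a median of 38.4, while the median cell of HE-YSA and of HE-YSP had 0 and their highest cells had 263 and 206 CPM.

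Among clusters Runx1 was highest in HE-AGM late, at 111 CPM (94.6 to 130; 155 counts), followed by HE-AGM early at 44.9 (35.9 to 55.4; 87 counts) and HE-Hb at 33.8 (25.2 to 44.4; 51 counts). The step from HE-AGM late to the next was beyond the counting intervals, while those of HE-AGM early and HE-Hb overlap. HE-YSA late, HE-YSA early, HE-YSP late, p2 and p1 followed at 23.5, 21.4, 19.5, 19.1 and 16.8 CPM from 25, 18, 16, 14 and 11 counts, with intervals that all overlap. HE-YSP early was last, with 1 count in 25 cells (1.18 CPM, 0.0298 to 6.55), an interval that lies below that of p1 (8.36 to 29.98). Within HE-AGM late the cells ran from 0 to 367 CPM with a median of 79.6, and within HE-AGM early from 0 to 154 with a median of 12, so that cells of the clusters overlap widely.

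**Figure D1:**
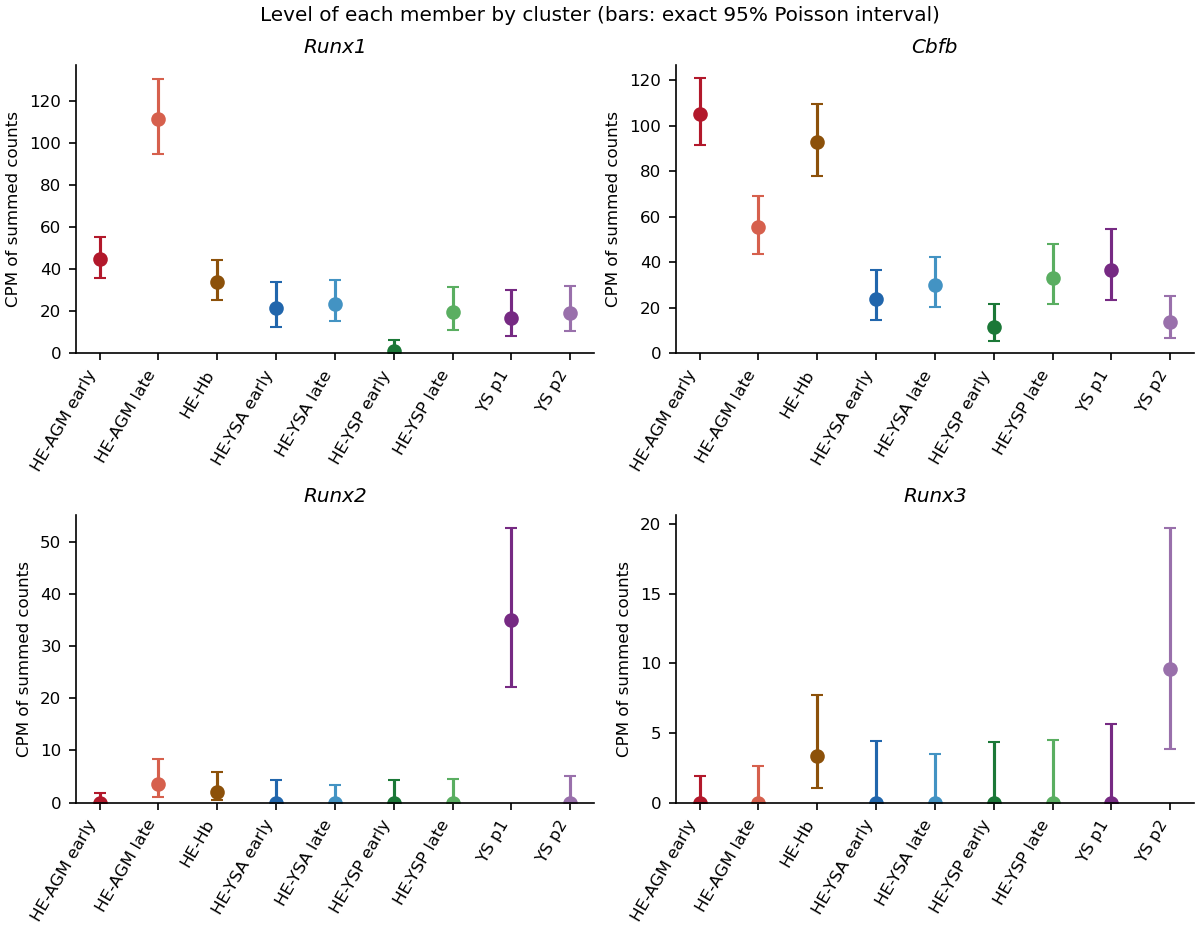
Level of Runx1, Cbfb, Runx2 and Runx3 in the 9 clusters, as CPM of the summed counts of the cluster (points) with the exact 95% Poisson interval (bars); each panel has its own axis. Runx1 peaks in HE-AGM late (111 CPM), Cbfb in HE-AGM early (105 CPM) and HE-Hb (92.7 CPM), and Runx2 and Runx3 are at 0 in most clusters.

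A Runx1 count of at least 1 was found in 30 of 49 HE-AGM cells (61.2%, 46.2 to 74.8), 15 of 52 HE-YSA cells (28.8%, 17.1 to 43.1) and 5 of 49 HE-YSP cells (10.2%, 3.397 to 22.2). Because HE-AGM cells were deeper, each cell was also thinned to 17595 counts, which gave 44.9%, 17.3% and 6.12%. The order of the populations was the same. A cell with 0 counts cannot be read as a cell without Runx1 at this depth.

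The HE-YSP level rests on very few cells. 1 cell of HE-YSP late held 9 of the 17 counts (52.9%), and 16 of the 17 came from nanopore run 1. HE-YSP stood at 28 CPM in run 1, 0 in run 2 (17 cells) and 1.53 in run 3, where HE-YSA stood at 16, 24.9 and 27.2 and HE-AGM at 41.4, 58.1 and 101.1 CPM. HE-AGM was thus above HE-YSA in each run, but HE-YSP was below HE-YSA only in runs 2 and 3. Without that cell the log2 CPM ratio of HE-YSP over HE-YSA went from -1.15 to -2.20.

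Log2 ratios of CPM put these differences beside those of all other genes. A gene was tested with at least 20 counts over both populations and was called when its ratio, with 0.5 counts added to each side, was past 1 in either direction. Between HE-AGM and HE-YSA the Runx1 ratio was 1.69 (1.21 to 2.19, a fold of 3.22) and the Cbfb ratio was 1.63 (1.20 to 2.08). Both were called higher in HE-AGM, where 31.8% of all 11960 genes tested were called higher and 13.3% lower. Between HE-AGM and HE-YSP the ratios were 2.84 (2.13 to 3.64) for Runx1 and 1.93 (1.43 to 2.47) for Cbfb, and both were again called, beside 34% of 11855 genes called higher and 14.5% lower. A call in this direction was thus common among all genes. The median ratio of all genes was 0.31 and 0.37 in these comparisons, and relative to it Runx1 stood at 1.38 and 2.47 and Cbfb at 1.32 and 1.56.

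Between the yolk sac populations Runx1 was called lower in HE-YSP, with the ratio of -1.15 (-2.05 to -0.31), beside 11.5% of 9780 genes called lower and 9.48% called higher. Cbfb was not called, at -0.30 (-0.95 to 0.33). The sort differed between these populations. Of the HE-YSA cells 47 carry Gfi1 in their sort name and 4 carry Runx1, and of the HE-YSP cells 13 and 36. Within cells sorted by the Gfi1 reporter Runx1 stood at 24.2 CPM in HE-YSA and 22.9 in HE-YSP, a log2 ratio of -0.08 (-1.24 to 0.93). That level of HE-YSP rests on the cell of 9 counts: without it 1 count was left (2.54 CPM), and the ratio was -3.25 (-8.59 to -0.70). Within cells sorted by the Runx1 reporter it stood at 5.67 CPM in HE-YSP, with 5 of 7 counts in 1 cell, and had no counts in the 4 cells of HE-YSA.

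From early to late cells Runx1 and Cbfb went opposite ways in HE-AGM. The log2 CPM ratio of late over early was 1.31 (0.92 to 1.71) for Runx1, which was called beside 9.1% of all genes called higher and 17.2% lower. Run 1 alone gave 0.85 (-0.08 to 1.79), and without the HE-AGM late cell of 40 counts the ratio was 0.9999, both under the limit for a call. For Cbfb it was -0.93 (-1.32 to -0.54), which was not called. It passed the limit in runs 1 and 3 (-1.24 and -1.10), in thinned cells (-1.56) and with estimates below 1 set to 0 (-1.25), and was -0.06 in run 2. In HE-YSA neither gene was called, at 0.13 (-0.80 to 1.09) for Runx1 and 0.34 (-0.51 to 1.22) for Cbfb (11% of all genes called higher, 11.7% lower). In HE-YSP Cbfb was called at 1.485 (0.39 to 2.70), beside 13.4% of all genes called higher and 12.6% lower. Runx1 had too few counts there for a call, 16 against 1, and a log2 ratio of 4.05 with an interval of 1.37 to 9.44. From HE-AGM late to HE-Hb the directions turned: Runx1 was called lower at -1.72 (-2.21 to -1.26), beside 15.3% of all genes called lower and 9.9% higher. Cbfb stood at 0.74 (0.33 to 1.16) and was not called, but it varied by run. In runs 1, 2 and 3 its level was 116, 54.9 and 100 CPM in HE-Hb and 42.0, 61.8 and 60.4 CPM in HE-AGM late.

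Stage moved with the yolk sac levels. In HE-YSA Runx1 stood at 49.6 CPM in the 14 cells of E9.5 and 14.1 CPM in the 35 cells of E10.5, and Cbfb at 64.1 and 15.5 CPM. In HE-YSP Runx1 stood at 13.2, 2.60 and 12 CPM at E9.0, E9.5 and E10.5, and Cbfb at 4.41, 28.6 and 28.8 CPM. These Runx1 values rest on single cells: without the highest cell of each stage they were 2.48, 0 and 1.27 CPM. With yolk sac cells of E10.5 alone the HE-AGM over HE-YSA ratio was 2.37 for Runx1 and 2.44 for Cbfb. All 49 HE-AGM cells were kept there, and only 1 of them carries a stage, E10.5, so the stages were not matched. The 5 HE-AGM cells of project GL43, all early and sorted by Gfi1, had 8.36 CPM of Runx1 and 176 CPM of Cbfb. The 23 early cells of GL34 had 54.3 and 90.6 CPM, and all 43 GL34 cells, early and late, had 81.4 and 73.9 CPM. A single GL43 cell held 46 of the 63 Cbfb counts of that project. Without it the GL43 level was 66.4 CPM, below both GL34 values. All 3 Runx1 counts of GL43 were in 1 cell.

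The share of Runx1 counts assigned to distal transcripts differed between the populations. Whether single reads reached the first exon was not checked, so the share is one of assigned transcripts. Distal transcripts held 203 of 242 counts in HE-AGM (83.9%, exact binomial interval 78.6 to 88.3), 15 of 43 in HE-YSA (34.9%, 21 to 50.9) and 0 of 17 in HE-YSP. A count of 0 allows a share of up to 17.6% by the limit of 3 counts used here for zeros, and 19.5% by the exact binomial interval. The share was 49.0 percentage points higher in HE-AGM than in HE-YSA and 83.9 points higher than in HE-YSP. From HE-YSA to HE-YSP the difference came to -34.9 points. HE-Hb, with 40 of 51 (78.4%, 64.7 to 88.7), lay close to HE-AGM. The yolk sac progenitors, with 1 of 11 in p1 (9.09%, 0.230 to 41.3) and 2 of 14 in p2 (14.3%, 1.78 to 42.8), lay near the yolk sac endothelium. In p2, 3 of the counts grouped as proximal were on Runx1-205, in 1 cell.

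The early and late clusters of each population did not have the same share. It was 90.8% (82.7 to 95.9) in HE-AGM early and 80% (72.8 to 86.0) in HE-AGM late, with overlapping intervals. In HE-YSA it was 16.7% (3 of 18) early and 48% (12 of 25) late, again with overlapping intervals (3.58 to 41.4 and 27.8 to 68.7). The only HE-YSP early count and the 16 HE-YSP late counts were all proximal.

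**Figure D2:**
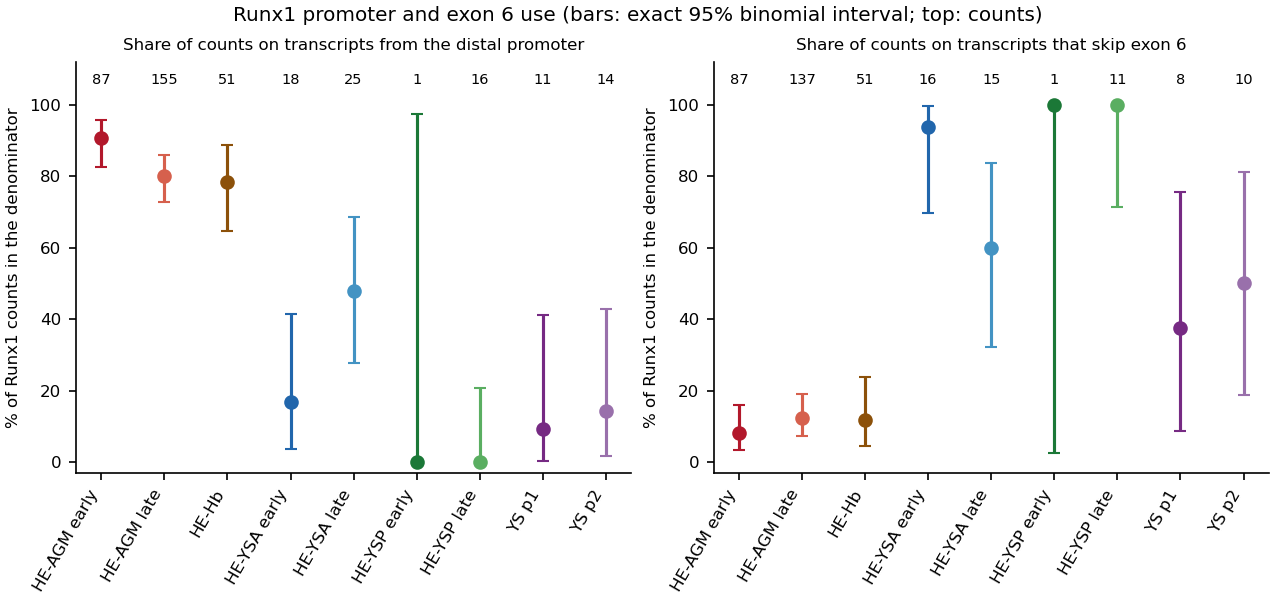
Left, share of Runx1 counts on transcripts from the distal promoter; right, share on transcripts that skip exon 6 among those that reach it; both in percent by cluster, with the exact 95% binomial interval (bars) and the counts in the denominator (numbers on top). HE-AGM and HE-Hb lie between 78.4% and 90.8% distal and at or below 12.4% skipping, while the yolk sac clusters lie at or below 48% distal.

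The nanopore run moved with this share. In HE-AGM it was 74.4% in run 1 (43 counts), 65.9% in run 2 (44) and 91.6% in run 3 (155). In HE-YSA it was 63.6% in run 1 (11 counts), 58.3% in run 2 (12) and 5% in run 3 (20). HE-AGM minus HE-YSA therefore came to 10.8 points in run 1 (-19.1 to 45.8), 7.58 points in run 2 (-23.3 to 41.1) and 86.6 points in run 3 (66.0 to 92.8). Only in run 3 did the counting interval leave out 0. Of the 7 distal counts of HE-YSA in run 1, 3 were in a cell that carries AGM in its name. HE-YSP gave 0% of 16 counts in run 1, none in run 2 and 1 proximal count in run 3, so that its difference from both others was seen within run 1.

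**Figure D3:**
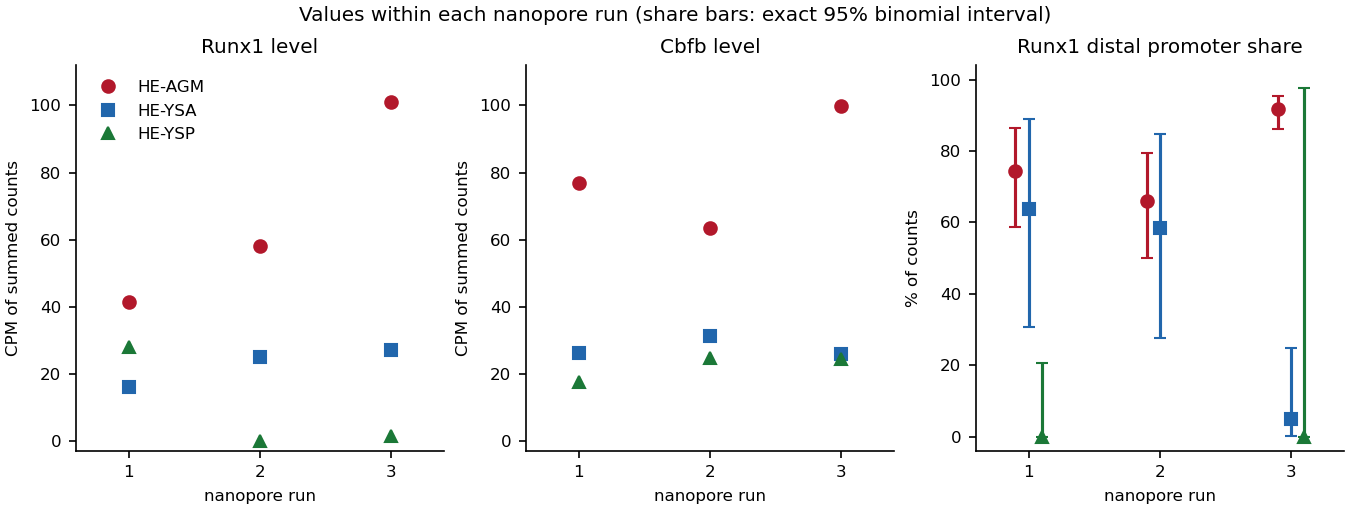
Runx1 level, Cbfb level (both in CPM of summed counts) and Runx1 distal promoter share (percent, with exact 95% binomial interval) within each of the 3 nanopore runs for HE-AGM (circles), HE-YSA (squares) and HE-YSP (triangles). Both levels are highest in HE-AGM in each run, while the distal shares of HE-AGM and HE-YSA lie close in runs 1 and 2 (74.4% and 63.6%, then 65.9% and 58.3%) and far apart in run 3 (91.6% and 5%).

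Single cells held counts assigned to both promoter groups. Of the 30 HE-AGM cells with Runx1 counts 18 had distal counts only, 3 proximal only and 9 both. Of the 15 such HE-YSA cells 4 had distal only, 7 proximal only and 4 both, and all 5 HE-YSP cells had proximal only. Among the proximal-only cells, 1 of HE-AGM and 1 of HE-YSA had counts on Runx1-205 alone, whose start does not show the promoter. In HE-AGM late 7 of 15 cells had both, against 2 of 15 in HE-AGM early. The HE-AGM late cell with the highest level, 367 CPM, held 32 distal and 8 proximal counts. Averaged over cells of at least 3 Runx1 counts, so that each cell weighs the same, the distal share was 81.5% in HE-AGM (26 cells) and 36.3% in HE-YSA (7 cells).

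**Figure D4:**
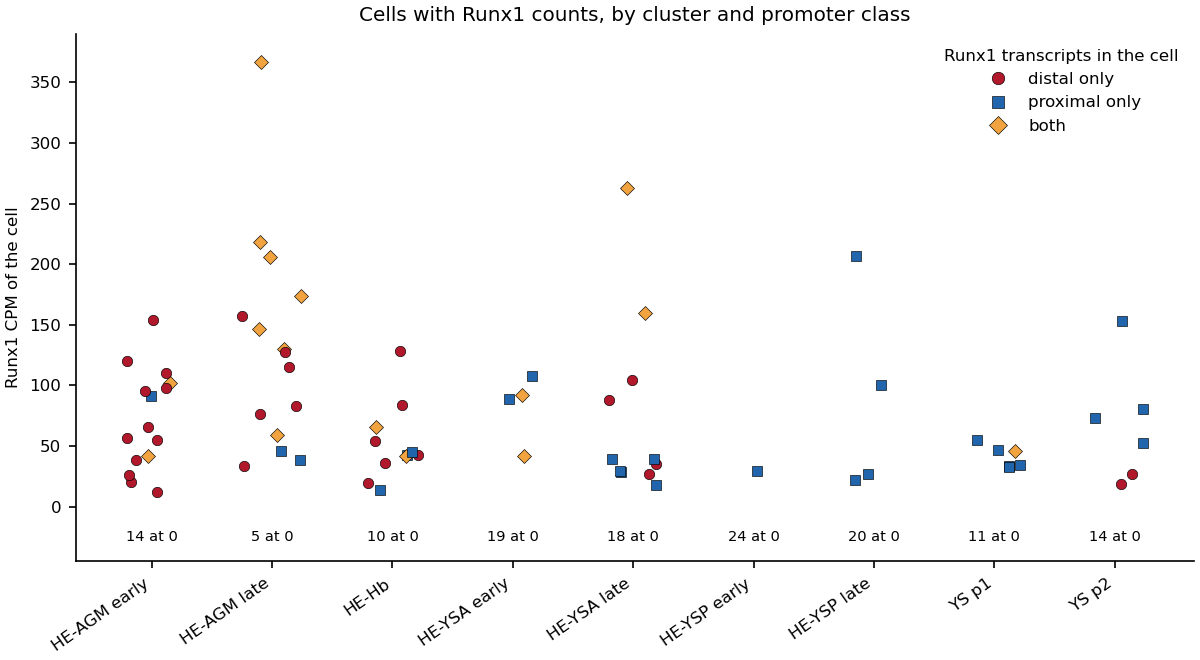
Runx1 level (CPM) of each cell with a Runx1 count, by cluster, coloured by whether its counts were on distal transcripts only (circles), proximal only (squares) or both (diamonds); the text under each cluster gives the cells at 0. HE-AGM cells are mostly distal or mixed, with the highest at 367 CPM, and all 5 HE-YSP cells are proximal only.

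The individual transcripts show what lies behind the shares. Full-length distal Runx1-201 held 188 of the 242 HE-AGM counts (77.7%) in 27 cells, but 5 of 43 (11.6%) in HE-YSA and 0 of 17 in HE-YSP. Of these 5 HE-YSA counts 3 were in 1 cell that carries AGM in its name. In HE-YSA the distal share came mainly from the short Runx1-207, which is annotated without a coding sequence and held 9 counts (20.9%) in 4 cells. In HE-AGM Runx1-207 held 5 counts (2.07%) in 1 cell. Runx1-204, a short coding distal transcript, held 10 counts in 3 HE-AGM late cells and 1 count in HE-YSA.

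Runx1-202, proximal and without exon 6, held 24 HE-AGM counts (9.92%), 24 HE-YSA counts (55.8%) and 12 HE-YSP counts (70.6%). Runx1-203, proximal with exon 6, held 12, 2 and 0 counts in the same order, and 4 counts each in p1 and p2. Most of the remaining HE-YSP counts were assigned to the retained intron transcript Runx1-206, 4.95 counts in 1 cell. The estimates of Runx1 transcripts were whole numbers within 0.01 in 71 of 73 cells with counts, so nearly every read was assigned to a single transcript.

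**Figure D5:**
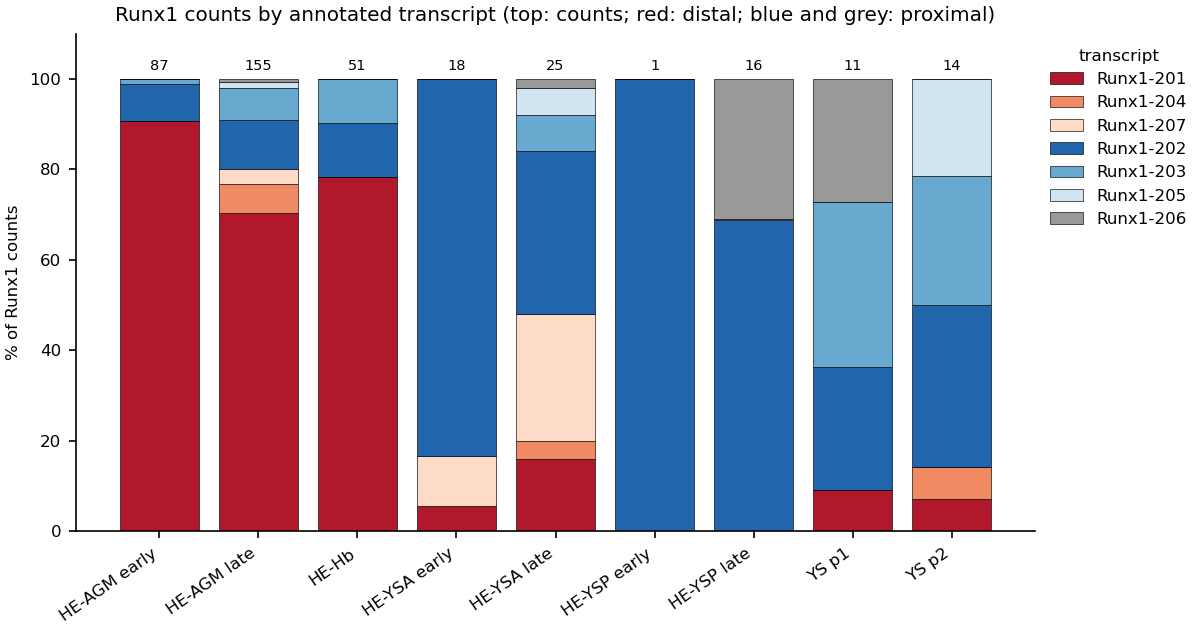
Composition of the Runx1 counts of each cluster by annotated transcript, in percent of the counts given on top of each bar; red shades start at the distal and blue or grey shades at the proximal promoter. Runx1-201 makes up 90.8% of counts in HE-AGM early, 70.3% in HE-AGM late and 78.4% in HE-Hb, and Runx1-202 makes up 83.3% in HE-YSA early.

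Skipping of exon 6 was read among the counts on Runx1-201, Runx1-202 and Runx1-203. Only Runx1-202 skips it, so it is not independent of the promoter or of the 3′ end. It was 10.7% in HE-AGM (24 of 224, 6.99 to 15.5), 77.4% in HE-YSA (24 of 31, 58.9 to 90.4) and 100% in HE-YSP (12 of 12, 73.5 to 100). The difference of HE-AGM was thus -66.7 points from HE-YSA and -89.3 points from HE-YSP, and HE-YSP stood 22.6 points above HE-YSA. Of the 12 HE-YSP counts 9 were in 1 cell, the only HE-YSP cell with at least 3 such counts. The HE-YSP interval does not cover this. Early and late clusters were at 8.05% and 12.4% in HE-AGM and at 93.8% and 60% in HE-YSA. HE-Hb was at 11.8% (6 of 51), p1 at 37.5% (3 of 8) and p2 at 50% (5 of 10).

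Within runs the exon 6 difference of HE-AGM from HE-YSA kept its direction, as that of the promoter share did, and came to -36.1, -43.2 and -85.6 points. HE-AGM was at 13.9%, 36.8% and 3.33% in runs 1, 2 and 3 (36, 38 and 150 counts), and HE-YSA at 50%, 80% and 88.9% (8, 5 and 18 counts). The interval of the difference included 0 in runs 1 (-71.6 to 1.57) and 2 (-67.8 to 11.3) and left it out in run 3 (-95.5 to -61.6). Of the 4 HE-YSA counts with exon 6 in run 1, 3 were in a cell that carries AGM in its name. Without that cell the difference of HE-AGM from HE-YSA over all runs was -75 points. Within the proximal promoter alone, Runx1-202 outnumbered Runx1-203 in HE-AGM (24 to 12), HE-YSA (24 to 2) and HE-YSP (12 to 0). These counts are few, no interval was computed for them, and a difference between the populations was not tested.

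Cbfb, the partner that all RUNX proteins use, followed Runx1 between tissues but not between clusters. Its level was 84.4 CPM (74.8 to 94.9; 281 counts) in HE-AGM, 27.3 (20.4 to 35.8; 52 counts) in HE-YSA and 22.1 (15.6 to 30.5; 37 counts) in HE-YSP. Over single HE-AGM cells it ran from 0 to 447 CPM with a median of 51.9, and the median cell of HE-YSA and of HE-YSP had 0. Among clusters HE-AGM early (105 CPM, 91.3 to 121) and HE-Hb (92.7 CPM, 78.0 to 109) were highest with overlapping intervals, and HE-AGM late followed at 55.4 (43.7 to 69.2). The yolk sac clusters lay at 36.6 in p1, 32.9 in HE-YSP late, 30.05 in HE-YSA late, 23.8 in HE-YSA early, 13.7 in p2 and 11.8 in HE-YSP early. Each of these intervals overlaps that of its neighbour in the order.

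By nanopore run Cbfb stood in HE-AGM at 77.0, 63.3 and 99.8 CPM, against 26.2, 31.1 and 25.8 for HE-YSA and 17.5, 24.6 and 24.5 for HE-YSP, so that HE-AGM was highest in every run. Cells with at least 1 count were 36 of 49 (73.5%), 19 of 52 (36.5%) and 17 of 49 (34.7%), and 44.9%, 25% and 24.5% after thinning. Runx1 and Cbfb were both seen in 26 of 49 HE-AGM cells, 12 of 52 HE-YSA cells and 2 of 49 HE-YSP cells. In HE-YSP 15 cells had Cbfb without Runx1 and 3 the reverse.

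The forms of Cbfb could not be told apart. The fifth exon of Cbfb has a short form (96 bases) and a long form (127 bases), of which the choice changes the carboxyl end of the protein. The long form is shown with its 31 extra bases in capitals (chr8:105202452-105202578, plus strand, GRCm38).
Cbfb exon, long form: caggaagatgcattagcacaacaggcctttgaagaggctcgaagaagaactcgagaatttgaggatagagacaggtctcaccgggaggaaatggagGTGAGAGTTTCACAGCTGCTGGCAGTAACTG
The counts of Cbfb-201 to Cbfb-204 were equal within 0.01 in 76 of the 98 cells with counts on these transcripts, which means that reads were divided evenly among them. Their shares are therefore not reported, and only the sum over the gene is used. Cbfb-205, a retained intron, had 1 count in HE-YSA late, and Cbfb-207 had 1 in HE-YSP late.

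Runx2 and Runx3 were rarely detected. Runx2, the bone regulator, had 31 counts in 5 of 208 cells. 23 of them lay in 2 p1 cells (35.03 CPM, 22.2 to 52.6), with 18 in a single cell at 406 CPM. HE-AGM late had 5 in 1 cell and HE-Hb 3 in 2 cells, and HE-AGM early, p2 and the yolk sac HE clusters had 0, which by the same limit of 3 counts allows up to 1.57 CPM in HE-YSA and 1.79 in HE-YSP. In p1, 11 counts were on Runx2-204, which starts at the distal promoter, and 10 on Runx2-209, which starts on the proximal side. The 5 counts of HE-AGM late were on Runx2-208, a retained intron. All Runx2 counts of p1 came from run 3.

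Runx3 had 12 counts, all on Runx3-201 from its distal promoter. 5 lay in 2 HE-Hb cells and 7 in 2 p2 cells (9.56 CPM, 3.84 to 19.7), all from run 1, and no cell used of the 3 HE populations had any. By the limit of 3 counts a 0 allows up to 0.901 CPM for HE-AGM, 1.57 for HE-YSA and 1.79 for HE-YSP, and the exact Poisson limits are 1.11, 1.94 and 2.21 CPM. No fold is given for either gene in the HE populations, since the counts are too few.

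The late endothelial clusters were also set beside the blood cells and progenitors. Over HE-YSA late, p1 had Runx2 called higher, at least 12.4-fold (23 counts in 2 cells against 0), with Runx1 at -0.49 (-1.66 to 0.59) and Cbfb at 0.28 on the log2 scale, beside 10.6% of all genes called higher and 15.9% lower. Over HE-YSP late p1 gave the same single call, beside 8.22% and 11.7%. In p2 Cbfb was called lower, at -1.14 (-2.33 to -0.08) over HE-YSA late and -1.27 (-2.48 to -0.18) over HE-YSP late, beside 16.9% and 12.1% of all genes called lower and 11.6% and 8.15% higher. Runx1 stood at -0.30 and -0.03 in these comparisons, both within counting error of 0. The Cbfb calls rest on 10 counts in 3 of the 20 p2 cells. The sort also differed: 18 p2 cells carry Runx1 in their sort name, and all 29 HE-YSA late cells carry Gfi1. Its part was not tested.

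Between tissues HE-Hb had more Cbfb than either progenitor. The log2 CPM ratio was 1.34 (0.71 to 2.03) over p1 and 2.76 (1.84 to 3.86) over p2, both called, beside 30.4% and 29.6% of all genes called higher and 17.4% and 17.6% lower. Runx1 was higher by 1.01 (0.05 to 2.10) over p1 and 0.82 (-0.05 to 1.79) over p2 and was not called in either. The HE-Hb cells were of another cDNA project and deeper, with a median total of 59726 counts against 30858 in p1 and 36710 in p2. Tissue, project and depth cannot be told apart here. Runx2 was called lower in HE-Hb than in p1, with 3 counts against 23, of which 18 were in a single p1 cell. Between p1 and p2 Runx2 and Cbfb were called higher in p1, beside 9.25% of all genes called higher and 9.33% lower, with a Cbfb ratio of 1.42 (0.30 to 2.65). The Cbfb ratios over p2, here and for HE-Hb, rest on 10 p2 counts in 3 cells. The stages of p1 and p2 differ, and the part of stage was not tested.

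A list of 9 known RUNX1 targets did not move as a block. In HE-AGM over HE-YSA 3 of 8 tested were called higher and none lower, beside 31.8% and 13.3% of all genes (median log2 ratio 0.34, all genes 0.31). Itga2b, which encodes CD41, had 21.6 against 4.198 CPM, Spi1, the myeloid regulator PU.1, 195 against 54.6 and Myb 103 against 40.9. Gfi1, a repressor of the endothelial program, was level at 108 and 111.8 CPM. CD41 and GFI1 were part of the sort. In HE-AGM over HE-YSP 4 of 9 were called higher and 3 lower, beside 34% and 14.5% of all genes (median -0.10, all genes 0.37). Nfe2, a regulator of platelet and red cell genes, had 152 against 27.5 CPM and Gfi1 108 against 19.7, while Pf4, a platelet chemokine, had 2.40 against 43.7 and Mpo, a granule enzyme of myeloid cells, 9.91 against 40.1. In HE-YSP over HE-YSA 4 of 9 were called higher and 2 lower, beside 9.48% and 11.5% of all genes (median -0.38, all genes -0.01).

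From early to late cells targets were called in 1 direction in each population. They were 5 of 7 tested in HE-AGM (median log2 ratio 1.41), 3 of 6 in HE-YSA (1.49) and 5 of 8 in HE-YSP (2.16), with none called lower. Of all genes 9.1%, 11% and 13.4% were called higher in these steps, beside medians of -0.06, 0.03 and 0.09 over all genes. Mpo went from 1.03 to 22.3 CPM in HE-AGM and from 4.70 to 76.7 in HE-YSP, and Myb from 1.19 to 72.3 in HE-YSA. In the same steps Runx1 was called in HE-AGM, was not called in HE-YSA and had too few counts for a call in HE-YSP. Late clusters were named by the study for their advance toward blood, so these genes do not bear on the clusters independently. Summed over the list the level was 414 and 885 CPM in HE-AGM early and late, 226 and 442 in HE-YSA, 168 and 421 in HE-YSP, 1107 in HE-Hb, 567 in p1 and 737 in p2. HE-Hb lay above HE-AGM late in this sum and p1 and p2 below it, at Runx1 levels of 33.8, 16.8 and 19.1 CPM in HE-Hb, p1 and p2. Of their sums Mpo alone made up 323, 206 and 259 CPM.

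Of 22 genes whose proteins bind or modify RUNX proteins, 21 were tested between HE-AGM and HE-YSA, and 16 were called higher in HE-AGM and none lower. Of all genes 31.8% were called higher, and the median log2 ratio was 1.40 for the list and 0.31 for all genes. Within runs 1, 2 and 3 alone 8, 7 and 14 of them were called higher, where 25.3%, 30.5% and 34.9% of all genes were, and 2 were called lower in run 1. Kat6a, an acetyltransferase, had 17.1 against 1.57 CPM (57 and 3 counts), Cdk6 7.06 against 1.05 (23.5 and 2 counts), and Tle3, a Groucho corepressor, 38.4 against 47.2. Between HE-AGM and HE-YSP 10 of 21 were called higher and none lower, beside 34% and 14.5% of all genes (median 0.91, all genes 0.37). Yap1, a coactivator of the Hippo pathway, had 59.5 against 4.79 CPM, and Ep300, an acetyltransferase, 35.1 against 31.1. Between HE-YSP and HE-YSA 2 of 16 were called higher and 4 lower, beside 9.48% and 11.5% of all genes, with Tle4 at 10.8 against 2.62 and Tle3 at 6.58 against 47.2 CPM. Cebpa had no count in these populations.

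From early to late a few cofactors were called, more of them lower than higher, as was also so for all genes in HE-AGM and HE-YSA. They were 0 higher and 4 lower of 21 in HE-AGM (9.1% and 17.2% of all genes), 1 and 3 of 12 in HE-YSA (11% and 11.7%), and 1 and 3 of 10 in HE-YSP (13.4% and 12.6%). The median log2 ratios were -0.43, 0.06 and -0.55, beside -0.06, 0.03 and 0.09 over all genes. The HE-AGM cells, in which most cofactors were higher, were those of the other cDNA projects and of greater depth, and the part of these was not tested.

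The genes whose pattern over the 9 clusters was most like that of Runx1, by Pearson correlation of log2(CPM + 10) among 6011 genes with at least 200 counts, were Prkcsh (r = 0.961), Scoc (0.960), Gm31392 (0.948), Igf2bp1 (0.945) and Frrs1 (0.931). For Cbfb they were Cpne1 (0.978), Tubgcp3 (0.966), Ppp1cb (0.964), Ssbp3 (0.962) and Rab27a (0.959). These are descriptions over 9 points that share libraries, depth and project with each other. Igf2bp1, an RNA-binding protein of fetal cells, stood at 84.6 and 111 CPM in HE-AGM early and late and 17.6 in HE-YSP early, the same extremes as Runx1. Ppp1cb, a phosphatase subunit, stood at 117 CPM in HE-AGM early, 129 in HE-Hb and 4.70 in HE-YSP early.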

How the data were processed

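Smart-seq2 cDNA of single cells was sequenced on a nanopore instrument. Per the study's methods, reads were trimmed, freed of chimeras and mapped against GENCODE transcript sequences (minimap2 2.26). NanoCount then shared out reads with several alignments. It can discard alignments that end far from an annotated 3′ end, a setting not given in the sources used here. The authors deposited estimated counts per transcript and cell without normalization, of which 49.5% of the values above 0 lay below 1. The deposited TPM hold these estimates scaled per cell, with no correction for transcript length, and served as a check. Of 221 cells, 13 below 17595 counts (1 scaled median absolute deviation under the median of 38780) were left out, and 0 columns were unmapped.

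Counts were summed per gene and cluster. Levels have exact Poisson, shares exact binomial and ratios exact conditional 95% intervals, with no test. Distal and proximal starts came from GENCODE M21 on GRCm38, since no annotation of the files' release was used. Starts over 1 kb apart were to be separate groups, but the proximal Runx1 starts, which this divides, were merged because all lie in the first exon of Runx1-202. The genes named were the members, of each list up to 4 with the largest and smallest ratios in a comparison, and the 5 most like Runx1 and Cbfb. Gfi1 in HE-AGM over HE-YSA, Myb and the macrophage markers were named after their values were seen. The members, lists and alternatives were chosen with earlier results of these data known. The ratio computation was tested on simulated data. Size factors came from DESeq2 1.42.0 in R 4.3.3. The rest used Python 3.11.15 with pandas 2.3.3, scipy 1.17.1, numpy 2.4.6 and, for plots, matplotlib 3.10.9.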

Additional observations from a re-analysis of the deposited data

How the results depend on the processing

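Of 199 alternative values for the differences between the 3 HE populations, 150 stayed within the counting interval of the value reported. In direction 4 of them turned: Runx1 in HE-YSP over HE-YSA in run 1, and Cbfb there, whose interval included 0, in late clusters (0.13), E10.5 cells and cells sorted by Gfi1 (0.02). Of 94 such values within tissues 7 turned. These were Cbfb of HE-Hb over HE-AGM late in run 2, and ratios of HE-YSA late over early whose intervals included 0: Runx1 in run 1 (-0.40), run 3 (-0.19), without the cells named against their label (-0.12) and with 1 cell left out (-0.28), and Cbfb in run 2 (-0.31) and with estimates below 1 set to 0 (-0.39). The causes were not tested. Within run 1 alone the HE-AGM minus HE-YSA differences were 10.8 points for the distal share and -36.1 for exon 6 skipping, the HE-AGM over HE-YSP log2 ratio of Runx1 was 0.56, and HE-YSP over HE-YSA turned to 0.81 for Runx1, with -63.6 points for the distal share and 50 for exon 6. Within run 2 alone they were 7.58 and -43.2 points, and the Cbfb ratios of HE-AGM were 1.02 over HE-YSA and 1.37 over HE-YSP. The Cbfb ratio of HE-Hb over HE-AGM late turned to -0.17 there. Within run 3 alone the values were 86.6 and -85.6 points against HE-YSA, 6.04 for Runx1 and 91.6 and -96.7 points against HE-YSP, and -4.15 for Runx1 and -5 points for the distal share in HE-YSP against HE-YSA.

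Early clusters alone gave HE-AGM over HE-YSA ratios of 1.07 for Runx1 and 2.14 for Cbfb, with 74.1 points (distal) and -85.7 points (exon 6). Against HE-YSP they gave 5.25, 3.16 and 90.8 points, and HE-YSP over HE-YSA gave -4.19 and -1.02. Late clusters alone gave 2.25, 0.88 and 32 points for HE-AGM against HE-YSA, 0.75 for Cbfb over HE-YSP, and -0.27 for Runx1 in HE-YSP over HE-YSA. With yolk sac cells of E10.5 and all HE-AGM cells, the HE-AGM over HE-YSA ratios were 2.37 and 2.44 for Runx1 and Cbfb. In the same order, the HE-YSP over HE-YSA ratios of E10.5 cells were -0.23 and 0.89. Cells sorted by Gfi1 gave -0.081 for Runx1 in HE-YSP over HE-YSA, and those sorted by Runx1 gave a lower bound of -2.52.

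Thinned cells gave 1.19 for Cbfb in HE-AGM over HE-YSA and 88.7 points for the distal share against HE-YSP. Setting estimates below 1 to 0 gave Cbfb ratios of 2.36 and 3.09. The distal share difference of HE-AGM and HE-YSA was 66.0 points with protein-coding transcripts and 67.8 with the 3 full-length transcripts. Alternatives chosen after seeing the data split the proximal starts. With the downstream starts alone (Runx1-203 and Runx1-205) the distal differences were 12.5, 93.5 and -81.1 points, of which those with HE-YSP rest on 0.045 counts, and with the upstream starts alone (Runx1-202 and Runx1-206) HE-AGM minus HE-YSP was 89.0. Leaving out each cell in turn, also chosen after seeing the data, gave 2.63 to 3.89 for Runx1 in HE-AGM over HE-YSP, -2.20 to -0.93 in HE-YSP over HE-YSA and -0.28 to 0.62 in HE-YSA late over early. Scaling by DESeq2 size factors shifted the median of all genes by 0.20 (HE-AGM over HE-YSA) and 0.22 (over HE-YSP), and Runx1 and Cbfb stood as before relative to it. No value was given by run 2 for shares against HE-YSP or by cells sorted by Runx1 for shares in HE-YSP over HE-YSA, nor by runs 2 and 3 for Runx1 in HE-YSP late over early. No paired analysis was possible because no label ties a cell of any group to a cell of another and no test was made, and the nanopore run, which all groups share, entered through the values within each run. The yolk sac shares rest on few counts, 43 in HE-YSA and 17 in HE-YSP.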
